A study of Mus musculus with 4 samples.

Results

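The 39 genes described here encode the machinery of mitosis, the step of the cell cycle in which duplicated chromosomes are parted and the cell divides. They were given by name, not by a measured value, and stand among the 21755 protein-coding genes of the annotation used (GENCODE vM21, mm10). They were sorted into 7 roles: cyclins, CDK1 and its activators together with Foxm1 (7 genes), mitotic kinases and the chromosomal passenger complex (6), the spindle checkpoint, APC/C and separase (8), the kinetochore (5), spindle motors and microtubule proteins (5), cytokinesis (6) and chromosome structure (2). Chromatin accessibility at these genes was read from 4 scATAC-Seq libraries of mouse hepatocytes, a method in which the Tn5 transposase cuts accessible DNA and each cut is traced to its nucleus by a barcode. The animals were male C57BL/6J mice on normal chow, aged 10 to 12 weeks in the labels, and the labels name no transgene or other allele. One library came from undamaged liver (PHx 0 h), and the other 3 from livers that had regenerated for 48, 72 and 96 h since PHx. PHx is partial hepatectomy, an operation that takes out liver lobes. Hepatocytes were freed by collagenase perfusion. The libraries of 0 and 48 h came from a single hepatocyte preparation each. There was 1 library per time point and no replicate, so a difference between times cannot be told apart from a difference between libraries, and no test between time points was possible. The comparisons address whether promoters of mitosis genes were more open in regenerating than in undamaged liver.

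After PHx, hepatocytes that rest in the normal liver re-enter the cell cycle and divide, and the genes listed here are the usual marks of that division. Their transcription is held down in resting cells by the DREAM complex and raised in G2 phase by B-MYB and FOXM1. These factors act through the MuvB core, which reads a short promoter element, the cell cycle genes homology region (CHR), that usually lies near the transcription start and downstream of CCAAT boxes bound by NF-Y. Open chromatin at a promoter permits transcription but does not measure it, and many cell cycle promoters are accessible in resting cells.

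Promoter sequences are shown for 7 members to set these elements beside the accessibility values below: Cdk1, Ccnb1, Plk1 and Mki67 as central members of the list, Cdc20 and Birc5 as those with the largest differences between libraries, and Top2a as the member with the most matches to the letters searched. The windows hold 250 bases before the RefSeq transcription start and 50 from it onward (GRCm38.p6), 5′ to 3′ on the strand of the gene. They are chr10:69352863-69353162 (minus strand) for Cdk1, chr13:100786437-100786736 (minus) for Ccnb1, chr7:122159185-122159484 (plus) for Plk1, chr7:135716330-135716629 (minus) for Mki67, chr4:118437294-118437593 (minus) for Cdc20, chr11:117848987-117849286 (plus) for Birc5 and chr11:99024140-99024439 (minus) for Top2a. Capitals mark matches, on either strand, to the CHR letters TTTGAA or TTCGAA, the NF-Y letters CCAAT, the E2F letters TTTNNCGC or the forkhead letters GTAAACA.
Cdk1: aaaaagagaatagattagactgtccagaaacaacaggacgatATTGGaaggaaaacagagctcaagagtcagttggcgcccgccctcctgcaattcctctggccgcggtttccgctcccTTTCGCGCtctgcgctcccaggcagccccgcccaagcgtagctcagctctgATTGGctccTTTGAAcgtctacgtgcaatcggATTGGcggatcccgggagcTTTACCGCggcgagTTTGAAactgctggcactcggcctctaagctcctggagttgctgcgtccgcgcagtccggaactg
Ccnb1: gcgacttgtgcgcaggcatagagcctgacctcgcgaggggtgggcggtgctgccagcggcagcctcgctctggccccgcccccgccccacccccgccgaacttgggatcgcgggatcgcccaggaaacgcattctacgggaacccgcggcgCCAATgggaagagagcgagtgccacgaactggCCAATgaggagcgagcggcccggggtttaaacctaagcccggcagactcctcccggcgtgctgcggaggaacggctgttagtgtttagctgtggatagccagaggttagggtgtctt
Plk1: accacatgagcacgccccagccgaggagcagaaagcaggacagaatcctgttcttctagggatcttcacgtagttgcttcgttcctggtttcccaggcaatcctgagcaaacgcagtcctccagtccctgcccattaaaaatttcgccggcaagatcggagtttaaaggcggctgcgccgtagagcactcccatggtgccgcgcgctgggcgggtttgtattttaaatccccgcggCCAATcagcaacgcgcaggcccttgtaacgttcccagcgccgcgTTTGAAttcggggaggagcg
Mki67: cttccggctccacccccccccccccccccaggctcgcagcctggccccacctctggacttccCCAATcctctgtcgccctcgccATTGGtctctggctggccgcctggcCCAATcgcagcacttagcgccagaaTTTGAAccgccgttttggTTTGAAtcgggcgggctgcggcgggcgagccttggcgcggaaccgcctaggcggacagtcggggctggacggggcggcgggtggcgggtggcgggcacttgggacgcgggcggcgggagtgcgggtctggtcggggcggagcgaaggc
Cdc20: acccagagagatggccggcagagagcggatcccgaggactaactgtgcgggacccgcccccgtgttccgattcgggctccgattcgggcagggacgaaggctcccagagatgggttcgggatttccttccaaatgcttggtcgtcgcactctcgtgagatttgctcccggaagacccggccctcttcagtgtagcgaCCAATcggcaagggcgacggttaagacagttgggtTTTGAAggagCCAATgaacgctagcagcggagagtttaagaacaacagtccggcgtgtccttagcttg
Birc5: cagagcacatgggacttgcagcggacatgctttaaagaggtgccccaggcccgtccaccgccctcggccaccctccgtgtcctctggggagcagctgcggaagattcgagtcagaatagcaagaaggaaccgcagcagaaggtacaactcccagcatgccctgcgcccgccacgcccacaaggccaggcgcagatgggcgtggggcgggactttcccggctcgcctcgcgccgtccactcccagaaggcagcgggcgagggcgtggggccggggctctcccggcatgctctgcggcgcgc
Top2a: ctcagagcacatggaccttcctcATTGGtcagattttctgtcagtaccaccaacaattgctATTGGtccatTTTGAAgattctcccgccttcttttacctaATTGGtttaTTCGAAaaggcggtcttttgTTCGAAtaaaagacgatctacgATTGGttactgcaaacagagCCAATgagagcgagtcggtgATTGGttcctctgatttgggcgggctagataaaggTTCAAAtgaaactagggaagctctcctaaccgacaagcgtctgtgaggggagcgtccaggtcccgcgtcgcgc

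The CHR and CCAAT letters were common in the promoters of the list. RefSeq windows were matched for 32 of the 39 members, in 34 windows, and Ccna2, Cdc25c, Foxm1, Aurkb, Incenp, Tpx2 and Kif20a had no entry. TTTGAA occurred in 23 of 32 members (71.9%), against 17.9% of 32851 promoter windows of the same length. TTCGAA occurred in 4 members (12.5%), against 1.56%. At least 1 of these 2 CHR forms was present in 25 members (78.1%), against 19.2% of all windows. CCAAT was found in 24 members (75%), against 37.4%, and 15 members (46.9%, against 11.7%) held 2 or more copies. CHR and CCAAT letters stood together in 22 of 32 members (68.8%), against 7.52% of all windows. The E2F letters occurred in 3 members (9.38%, against 5.17%) and the forkhead letters in 2 (6.25%, against 3.65%). Matches overlapped each other in 2 members, Cdca8 and Ube2c, 1 time each.

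Counted in 1 window per gene, with the start base as 0, the 34 CHR matches had a median position of -1.5 bp and the 56 CCAAT matches one of -67.5 bp. Of these, 26 CHR and 40 CCAAT matches lay from 100 bp before the start onward. In Cdk1, CHR letters began 71 and 15 bp before the start, with CCAAT letters 208, 80 and 48 bp before it. In Plk1, the CHR letters began 30 bp after the start and the CCAAT letters 14 bp before it. The Birc5 window held no match to any of the letters searched, and that of Ccnb1 held CCAAT only. A match is a description of the sequence and does not show binding.

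**Figure D1:**
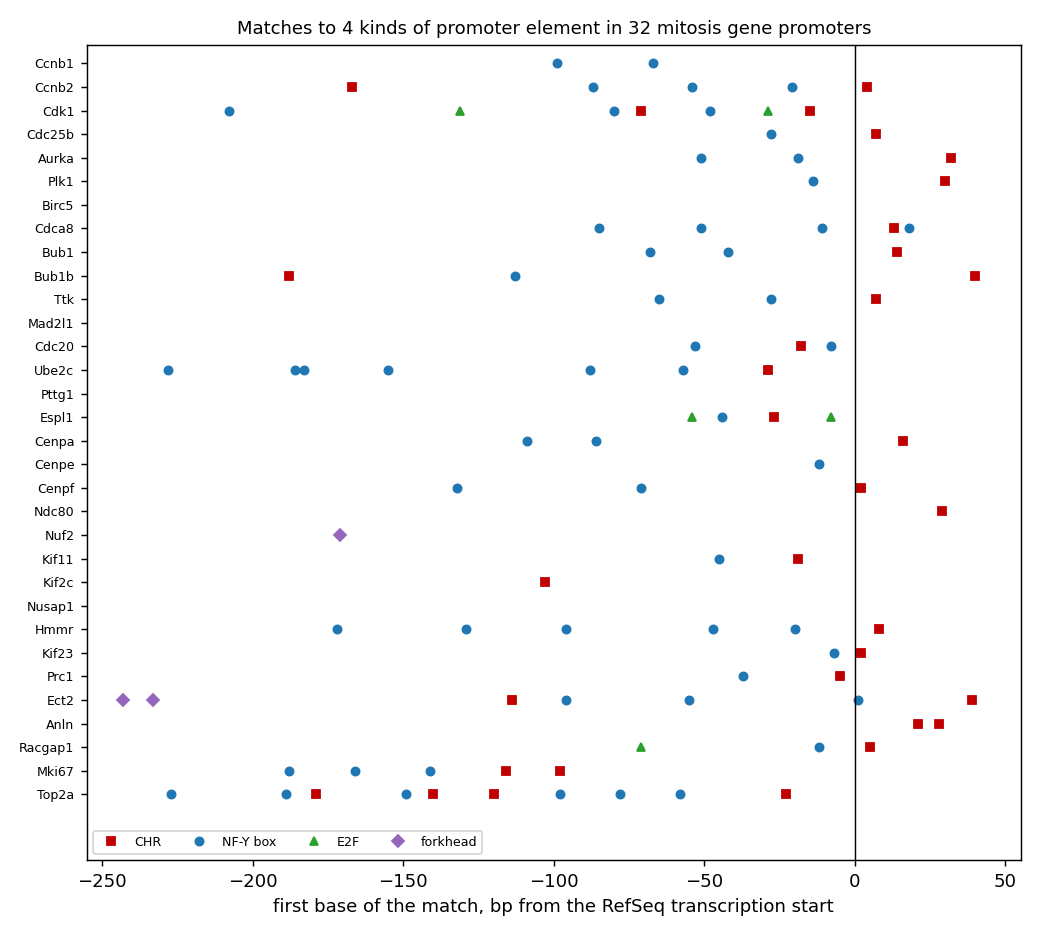
Positions of matches to CHR, NF-Y box (the CCAAT letters), E2F and forkhead letters in the promoter windows of 32 mitosis genes. The x axis gives the first base of each match in bp from the RefSeq transcription start (vertical line), and each row is 1 gene. CHR matches (red squares) gather around the start and NF-Y box matches (blue circles) before it, and Birc5, Mad2l1, Pttg1 and Nusap1 have none.

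These windows lay in open chromatin in every library. Of the 34 windows, 33 at 0, 48 and 72 h and 31 at 96 h lay wholly inside a peak, and at 96 h another 2 lay partly inside. The window outside peaks in each library was that of Kif2c, whose RefSeq start differs from the 5′ end of the GENCODE gene.

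Depth differed strongly between the libraries. A barcode was taken as a nucleus from 1000 counts in peaks upward, and such barcodes numbered 3977, 3892, 4256 and 3224 at 0, 48, 72 and 96 h, with median counts of 26005, 11629, 4841 and 3681.5. The authors called peaks in each library separately, and the peaks covered 153.6, 179.0, 141.2 and 60.9 Mb. Any 2 libraries shared 27 to 60 nuclear barcodes, at most 1.51% of the nuclei of a library. All 10 hepatocyte markers exceeded 5 CPM (counts per 1000000 counts in peaks) at their promoters in each library, with sums of 3025 to 5347 CPM. Summed levels were 100.2 to 259.7 CPM for 10 endothelial markers (3 to 5 above 5 CPM), 8.90 to 117.7 for 10 Kupffer and myeloid markers (1 or 2), 37.8 to 81.0 for 10 stellate and mesenchymal markers (1 to 3), 11.1 to 25.3 for 5 bile duct markers (2) and 0 to 3.05 for 5 lymphocyte markers (0). Of the Kupffer and myeloid markers, Adgre1, Lyz2, Marco, Cd5l and Vsig4 were at 0 in each library. So were Lyve1 (endothelial), Acta2 (stellate and mesenchymal) and Cd3e, Ms4a1 and Cd3g (lymphocyte). A value of 0 means only that no counts in a peak lay in the promoter window. The endothelial and Kupffer sums were lowest at 96 h (235.2 and 101.2 CPM at 0 h, 100.2 and 8.90 at 96 h), the time with most members past 1.5-fold. The stellate and bile duct sums were higher at 96 h (70.5 and 24.6 CPM) than at 0 h (37.8 and 11.1 CPM). Of the 10 Kupffer and myeloid markers, 8 were at 0 at 0 h and 9 at 96 h, so their sum rests on few genes. The part of these other cells in the results was not tested.

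Every mitosis gene had an open promoter in undamaged liver. A promoter peak, within 1 kb of any annotated transcript start, was present for 39 of 39 members at 0, 48, 72 and 96 h, against 69.7%, 73.9%, 74.2% and 65.9% of all 21755 coding genes. All 39 also passed the filter of a mean of 5 CPM over the libraries, as did 13824 coding genes. The counts behind a member were 1022 to 6677 at 0 h and 72 to 1070 at 96 h. Per kb of covered peak the members were like other promoters tested: their median was 9.65, 7.83, 10.0 and 20.4 CPM per kb at 0, 48, 72 and 96 h, against 9.07, 7.59, 9.77 and 18.8 for all. Mad2l1, a spindle checkpoint protein, had the highest level per kb in each library (25.6, 21.5, 27.4 and 53.3 CPM per kb). The lowest was that of Ccnb2, cyclin B2, at 0 and 48 h (3.36 and 3.52) and that of Espl1, the protease separase, at 72 and 96 h (5.36 and 9.41). Members had shorter promoter peaks than the promoters tested in general, with a median covered length of 1702, 1944, 1622 and 1104 bp at 0, 48, 72 and 96 h against 2650.5, 3006.5, 2365 and 1424 bp.

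**Figure D2:**
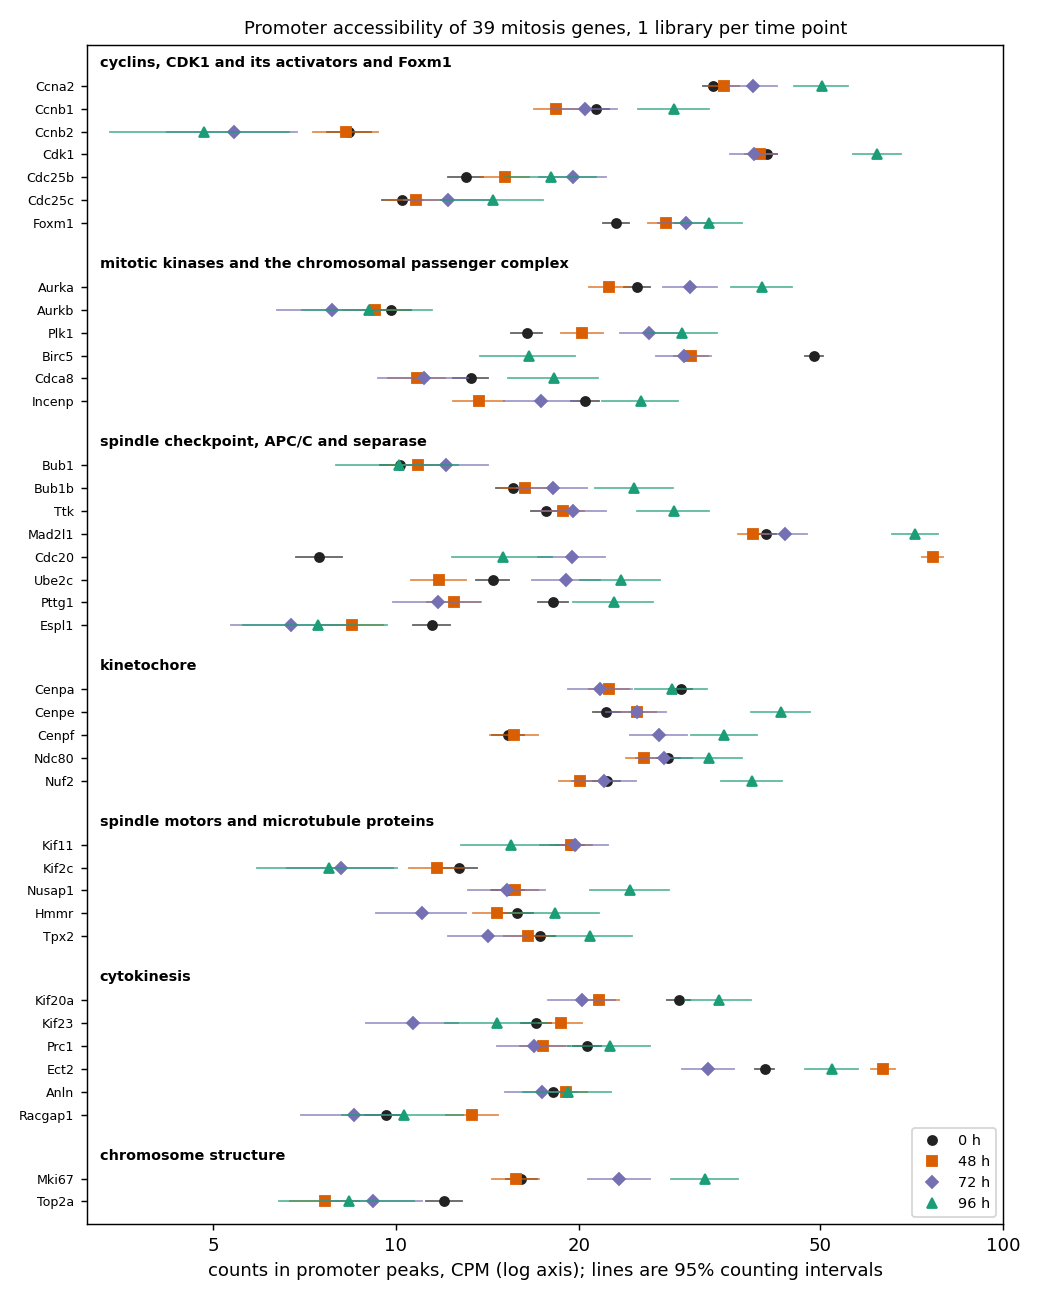
Counts in promoter peaks of each mitosis gene in CPM (x axis, log scale) in the 4 libraries, 0 h (black circles), 48 h (orange squares), 72 h (violet diamonds) and 96 h (green triangles), with genes grouped by role. Lines are exact 95% Poisson intervals and cover counting error only; for most genes the 0 and 48 h points lie close together, with Cdc20 and Birc5 as the clearest exceptions.

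Promoter accessibility of the list at 48 h was close to that of undamaged liver. A difference in these sums over nuclei can come from more nuclei with an open promoter or from more cuts per nucleus, which cannot be told apart here. The value used is the log2 ratio of CPM at the later time to CPM at 0 h, with 1 CPM added to each. The median over the 39 members was -0.04 at 48 h, against -0.15 over all 13824 promoters tested. The 72 h median was -0.06 (all -0.10) and that of 96 h 0.36 (all 0.15). The sign at 48 and 72 h depended on the scaling, since the member medians were 0.04 and 0.001 when libraries were scaled to regions with a peak in all of them, and 0.11 and 0.04 when the median of all promoters was set to 0. At 96 h they were 0.25 and 0.21 under these scalings. Summed over the members, promoter counts made up 780.6, 819.6, 769.1 and 1011.5 CPM at 0, 48, 72 and 96 h, and Cdc20 alone accounted for 7.48 CPM of the first and 76.5 CPM of the second sum.

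Few members differed by 1.5-fold or more until 96 h. At 48 h, 2 of 39 were at least 1.5-fold higher (Cdc20 and Ect2), where 11.4% of all promoters were, and 2 were at least 1.5-fold lower (Birc5 and Top2a), where 8.90% were. At 72 h, 3 were higher (Plk1, Cdc20 and Cenpf; background 15.1%) and 5 lower (Birc5, Pttg1, Espl1, Kif2c and Kif23; background 18.6%). At 96 h, 13 were higher (Cdk1, Aurka, Plk1, Bub1b, Ttk, Mad2l1, Cdc20, Ube2c, Cenpe, Cenpf, Nuf2, Nusap1 and Mki67; background 20.6%) and 3 lower (Ccnb2, Birc5 and Kif2c; background 16.4%). When libraries were scaled to regions with a peak in all of them, 2 members were higher and 0 lower at 48 h (all promoters 13.1% and 6.54%), 4 and 2 at 72 h (17.1% and 16.3%) and 7 and 4 at 96 h (15.6% and 18.9%). With the median of all promoters set to 0, the counts were 3 and 0 at 48 h (14.8% and 4.84%), 5 and 2 at 72 h (17.7% and 14.9%) and 7 and 5 at 96 h (13.3% and 20.1%).

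**Figure D3:**
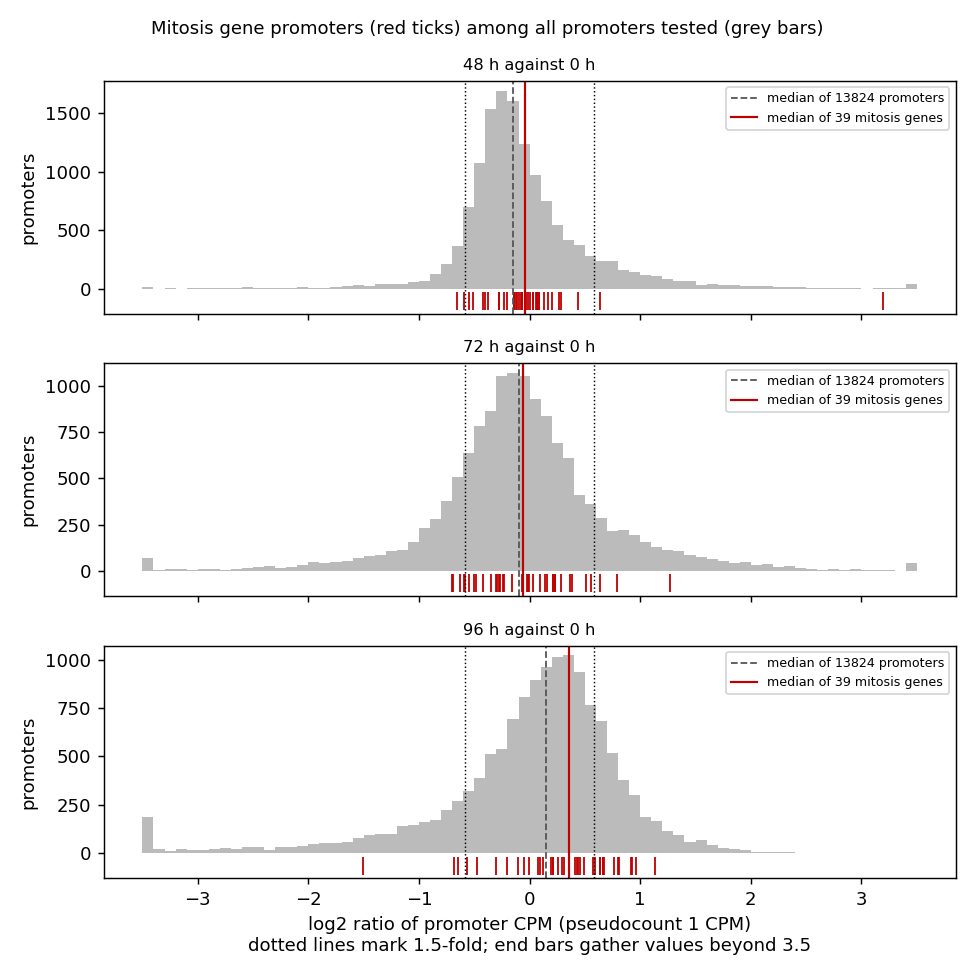
Distribution of the log2 ratio of promoter CPM against 0 h over 13824 promoters (grey bars) with the 39 mitosis genes as red ticks, for 48, 72 and 96 h. Vertical lines mark the median of all promoters (dashed) and of the mitosis genes (red), which are -0.15 and -0.04, -0.10 and -0.06, and 0.15 and 0.36, and dotted lines mark 1.5-fold.

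Much of the spread among promoters ran with the length of the peaks called. Across the 39 members the correlation between the log2 ratio of counts and that of covered length was 0.90, 0.71 and 0.76 at 48, 72 and 96 h, and across all promoters tested 0.86, 0.88 and 0.86. These are correlations across genes of the same pair of libraries. Members' peaks were longer than at 0 h for 33 of 39 genes at 48 h, 17 at 72 h and 0 at 96 h. Of all 13824 promoters tested, 8461, 3677 and 138 had longer peaks at these times. Among members whose covered length differed by no more than 5 to 4 (near-equal length), the median log2 ratio was -0.12 over 24 genes at 48 h (all promoters of such length -0.21), -0.02 over 25 genes at 72 h (all 0.02) and 0.67 over 7 genes at 96 h (all 0.79). The 7 genes at 96 h were Ccna2, Cdk1, Incenp, Ttk, Mad2l1, Cenpe and Nuf2.

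**Figure D4:**
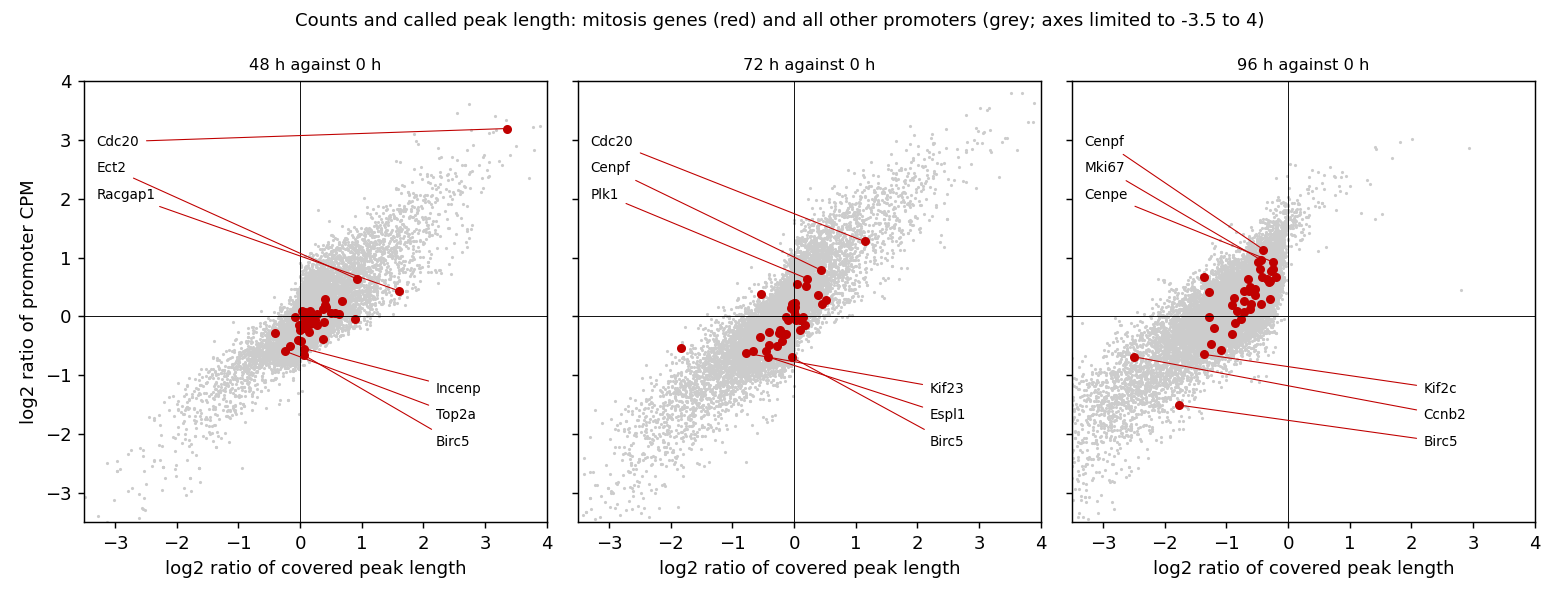
Log2 ratio of promoter CPM (y axis) against log2 ratio of covered peak length (x axis) at 48, 72 and 96 h relative to 0 h, for mitosis genes (red) and all other promoters tested (grey). Counts and length run together in each comparison, and Cdc20 at 48 h lies at the upper right. At 96 h all 39 mitosis genes lie left of 0, and peaks were shorter for 13666 of all 13824 promoters.

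Each member was next set beside other promoters of like level and length at 0 h, namely all those tested whose 0 h CPM and 0 h covered length were both within a ratio of 5 to 4 of its own. Between 98 and 1449 promoters (median 1012) met this for a member. The median difference, member minus the median of its comparable promoters, came to 0.11, 0.03 and 0.10 on the log2 scale in the 3 comparisons. At near-equal length the differences were 0.05, -0.02 and 0.06, and with each nucleus counted once per peak 0.07, -0.02 and 0.04, so the sign at 72 h was not fixed. Members lay above their comparable promoters in 25, 21 and 22 of 39 cases. Covered length did not develop alike in both sets at 48 h: the median length ratio to 0 h was 1.13 for the members and 1.03 for their comparable promoters, whereas at 96 h it was 0.64 and 0.63. At 96 h, 6 of 7 genes of the cyclin group lay above their comparable promoters (all but Ccnb2), as did 1 of 6 cytokinesis genes (Ect2). Cdc20 at 48 h (3.02) lay far from all other members, and the lowest differences were those of Ccnb2 at 72 h (-1.37) and Birc5 at 96 h (-1.51).

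**Figure D5:**
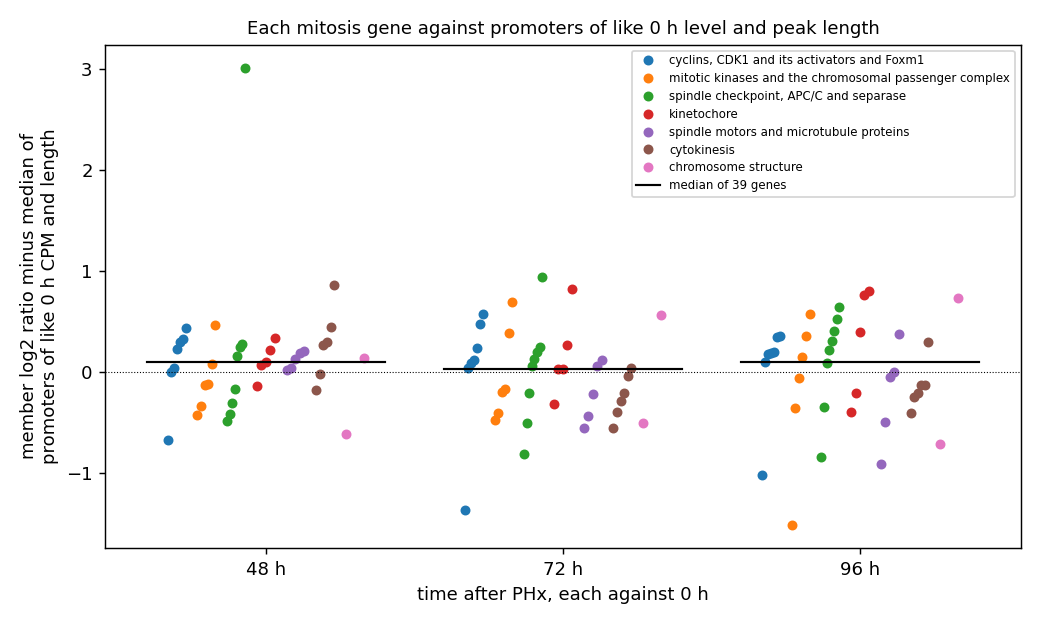
Log2 ratio of each mitosis gene minus the median log2 ratio of promoters of like 0 h CPM and peak length (y axis), at 48, 72 and 96 h against 0 h. Points are genes coloured by role and black lines are medians over 39 genes (0.11, 0.03 and 0.10); the zero line passes through the bulk of the points at each time.

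Among cyclins, CDK1 and its activators, no member passed 1.5-fold at 48 or 72 h, and the median log2 ratio of the 7 genes was 0.05, 0.21 and 0.46 at 48, 72 and 96 h. Cdk1 (chr10:69335146-69352938, minus strand), the kinase that drives entry into mitosis, had 40.8, 39.7, 38.8 and 62.1 CPM at 0, 48, 72 and 96 h. Its log2 ratio was -0.04 (95% counting interval of the plain CPM ratio -0.14 to 0.06), -0.07 (-0.21 to 0.07) and 0.59 (0.46 to 0.75). These sums joined peaks that differed: the peak at the 5′ end of the gene, which holds the sequence printed above, had 17.5, 19.2, 22.7 and 38.3 CPM, and a peak at an internal transcript start (chr10:69341253-69342970 at 0 h) had 23.3, 18.3, 15.2 and 23.8 CPM. For the 5′ peak alone the log2 ratio was 0.12, 0.35 and 1.08, at lengths of 1447, 2301, 1519 and 1250 bp. Thus the 5′ peak was higher at 96 h than at 0 h at near-equal length, and the internal peak was at like levels in both. Such a rise was common, since all promoters of near-equal length at 96 h had a median of 0.79. Of these, 68.2% were at least 1.5-fold higher.

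Ccnb1 (chr13:100778650-100786570, minus strand), cyclin B1 and partner of CDK1, had 21.3, 18.4, 20.5 and 28.7 CPM, with log2 ratios of -0.21, -0.06 and 0.41. Its peak was 2155, 2263 and 2206 bp long at 0, 48 and 72 h and 882 bp at 96 h. Ccnb2 (chr9:70407692-70421547, minus strand) stood apart in this group at the later times, with 8.38, 8.27, 5.42 and 4.82 CPM and log2 ratios of -0.02, -0.55 and -0.69. Its peak was 2493, 2352, 699 and 442 bp long, so its level per kb, unlike its count, was higher at 72 and 96 h (7.75 and 10.9 CPM per kb) than at 0 h (3.36), as the median of all promoters was. Foxm1 (chr6:128362967-128376146, plus strand), the forkhead factor that raises G2 genes, had 23.0, 27.9, 30.0 and 32.8 CPM and log2 ratios of 0.26 (0.15 to 0.40), 0.37 (0.21 to 0.55) and 0.49 (0.31 to 0.71). These sums covered 2672, 4306, 3478 and 1734 bp in 2 or 3 peaks. The 5′ peak of Foxm1 alone, at near-equal length at 48 and 72 h, was at 0.08, 0.24 and 0.48. Its 5′ end lies 56 bp from the start of Rhno1 on the other strand, and its promoter peak holds both starts. Ccna2, cyclin A2, and the phosphatases Cdc25b and Cdc25c, which activate CDK1, had log2 ratios between 0.05 and 0.20 at 48 h and between 0.44 and 0.58 at 96 h.

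The mitotic kinases and the chromosomal passenger complex diverged. The median of the 6 genes was -0.21, -0.23 and 0.36 at 48, 72 and 96 h. Plk1 (chr7:122159439-122169873, plus strand), the polo-like kinase of mitotic entry and spindle assembly, had 16.4, 20.3, 26.1 and 29.6 CPM. Its log2 ratio was 0.29 (0.16 to 0.45), 0.64 (0.49 to 0.85) and 0.81 (0.63 to 1.06), and its peak length was 1702, 2263, 1978 and 1240 bp. The 72 h value stands at near-equal length, and it was 0.69 above comparable promoters. Per kb, Plk1 was at 9.65, 8.95, 13.2 and 23.9 CPM per kb, so that the 48 h level lay below that of 0 h by this measure.

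Birc5 (chr11:117849251-117855743, plus strand), which encodes survivin, a subunit of the passenger complex, went the other way. It had 48.9, 30.6, 29.8 and 16.5 CPM at 0, 48, 72 and 96 h, the highest level of the list at 0 h. The log2 ratio was -0.66 (-0.78 to -0.57), -0.70 (-0.87 to -0.56) and -1.51 (-1.83 to -1.30). Peaks of 4998, 5202 and 4876 bp at 0, 48 and 72 h (chr11:117844711-117849708 at 0 h) make the first 2 values ones of near-equal length, whereas at 96 h the peak was 1466 bp long and other peaks covered part of the rest. Over all peaks in the merged region the log2 ratio was -0.66, -0.70 and -0.59. Birc5 was therefore lower than at 0 h in all 3 later libraries by either count, with a 96 h value that rested on the shorter peak. Per kb of that peak, unlike its count, Birc5 was higher at 96 h than at 0 h, as the median of all promoters was.

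Aurkb (chr11:69045647-69051664, plus strand), the kinase of the passenger complex, had 9.83, 9.23, 7.85 and 9.04 CPM, with log2 ratios of -0.08 (-0.30 to 0.11), -0.29 (-0.65 to -0.02) and -0.11 (-0.50 to 0.24). Incenp (chr19:9872296-9899551, minus strand), the scaffold of that complex, had 20.5, 13.7, 17.3 and 25.3 CPM. Its log2 ratios were -0.55 (-0.74 to -0.42), -0.23 and 0.29 at near-equal length in each comparison. At 96 h all promoters of such length had a median of 0.79. Cdca8, the borealin subunit of the complex, had log2 ratios of -0.27, -0.24 and 0.43. No peak lay within 1 kb of the GENCODE 5′ end of Cdca8, and its counts came from another annotated start that faces 9930104L06Rik. At 48 h the counting intervals of Birc5, Incenp and Cdca8 left out 0, and that of Aurkb did not. Values below 0 were common at that time, since 4853 of all 13824 promoters lay above 0. Aurka, the kinase of spindle poles, had log2 ratios of -0.14, 0.28 and 0.66.

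The spindle checkpoint, APC/C and separase group held the member with the largest ratio. Its 8 genes had a median of -0.003, 0.17 and 0.65 at 48, 72 and 96 h, and 5 of 8 were at least 1.5-fold higher at 96 h, where 20.6% of all promoters were. Under either alternative scaling the number higher among all 39 members was 7 in place of 13, and it was not split by role. Cdc20 (chr4:118432901-118437352, minus strand), the activator of the APC/C that triggers anaphase, had 7.48, 76.5, 19.5 and 15.0 CPM. The log2 ratios were 3.19, 1.27 and 0.92. At 0 h its promoter peak spanned chr4:118436774-118437855 (1082 bp), and at 48 h a single peak of 11061 bp spanned chr4:118427137-118438197 and also held the start of Elovl1, a fatty acid elongase gene. Per kb, Cdc20 was at 6.92 CPM at both 0 and 48 h. Over all peaks of the merged region, Cdc20 had 50.4, 76.5, 70.0 and 70.6 CPM, with log2 ratios of 0.59, 0.47 and 0.48. The 9.14-fold ratio at 48 h came with a single long peak in place of separate ones. In the window and over the merged region, counts were higher at each later time than at 0 h. The sizes of these ratios depended on where the peaks ended. The merged region spans the 48 h peak with the Elovl1 start. Most of its counts lay outside the Cdc20 promoter peak at 0 h (7.48 of 50.4 CPM inside) and 96 h (15.0 of 70.6). Over the gene body Cdc20 was lower than at 0 h at 72 and 96 h (log2 ratios -0.76 and -1.68).

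Mad2l1, the checkpoint protein with the highest level per kb, had 40.7, 38.7, 43.6 and 71.6 CPM. Its log2 ratios were -0.07, 0.10 and 0.80 at near-equal length throughout, the last beside 0.79 for all promoters of such length. Espl1 (chr15:102296266-102324357, plus strand) had 11.5, 8.45, 6.71 and 7.43 CPM and log2 ratios of -0.40 (-0.65 to -0.24), -0.69 (-1.12 to -0.44) and -0.56 (-1.05 to -0.23). Its peaks were 1671, 1638, 1253 and 790 bp long, so of these values the first is at near-equal length. Pttg1, securin, the inhibitor of separase, also had log2 ratios below 0 at 48 and 72 h (-0.51 and -0.59) and was at 0.31 at 96 h. Ube2c, the APC/C ubiquitin-conjugating enzyme, was at -0.28, 0.38 and 0.66 in the window, and at 0.11, 0.61 and 0.66 over its merged region. The checkpoint kinases Bub1, Bub1b and Ttk lay between 0.06 and 0.09 at 48 h, and Bub1b and Ttk, at 0.63 and 0.67, but not Bub1 (-0.005), passed 1.5-fold at 96 h.

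Kinetochore genes had the highest role median at 96 h. The 5 genes were at a median of -0.13, -0.01 and 0.77 at 48, 72 and 96 h, and 3 of 5 were at least 1.5-fold higher at 96 h, again beside 20.6% of all promoters. Cenpf (chr1:189640606-189688086, minus strand), a large outer kinetochore and nuclear matrix protein, had 15.3, 15.7, 27.1 and 34.7 CPM. Its log2 ratio was 0.03 (-0.12 to 0.19), 0.79 (0.65 to 1.01) and 1.13 (0.98 to 1.38), the highest member value at 96 h. The peak was 1158, 1803, 1561 and 877 bp long, so the 96 h count was higher from a shorter peak. Cenpe (chr3:135212537-135273611, plus strand), the kinesin that moves chromosomes to the spindle equator, had 22.2, 25, 24.9 and 43.1 CPM and log2 ratios of 0.16 (0.04 to 0.30), 0.16 (-0.01 to 0.34) and 0.93 (0.78 to 1.13), with near-equal length at 72 and 96 h. Its 5′ peak alone, of 1704, 1986, 1850 and 1723 bp, had 19.1, 20.1, 21.5 and 40.0 CPM and log2 ratios of 0.07, 0.16 and 1.02. At 96 h the median over all promoters of near-equal length was 0.79. Nuf2 and Ndc80, partners in the complex that grips microtubules, were at 0.77 and 0.21 at 96 h, and Cenpa, the histone H3 variant of centromeres, at -0.38, -0.42 and -0.05.

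Spindle motors and microtubule proteins showed little at 48 h, with log2 ratios from -0.11 to 0.03 and a median of -0.07. Their medians were -0.27 at 72 h and 0.20 at 96 h. Kif2c (chr4:117159639-117182639, minus strand), a kinesin that takes microtubules apart, had 12.7, 11.7, 8.13 and 7.77 CPM, with log2 ratios of -0.11, -0.59 (-0.96 to -0.35) and -0.65 (-1.12 to -0.33). Its peak length was 1411, 1609, 1035 and 549 bp. Kif11, the kinesin that pushes spindle poles apart, had ratios of 0.01, 0.03 and -0.30, and Nusap1, a microtubule bundling protein, 0.03, -0.01 and 0.63. Hmmr, a spindle-bound protein, was at -0.10, -0.48 and 0.20 and Tpx2, which activates Aurora A on the spindle, at -0.07, -0.27 and 0.26.

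Among cytokinesis genes the signs of Kif23 and Racgap1 at 72 h depended on which peaks were counted. The median of the 6 genes was 0.10, -0.29 and 0.11 at 48, 72 and 96 h, and by this count none passed 1.5-fold at 96 h, where 20.6% of all promoters were higher and 16.4% lower. Ect2 (chr3:27097222-27153878, minus strand), an exchange factor that starts the cleavage furrow, had 40.5, 63.4, 32.6 and 52.2 CPM in 3, 4, 3 and 3 peaks and log2 ratios of 0.64, -0.30 and 0.36. The peak at its 5′ end had 20.2, 42.1, 19.1 and 30.9 CPM at lengths of 2455, 5491, 2388 and 2014 bp, and for it alone the ratios were 1.02, -0.08 and 0.59. Over the merged regions the 48 h value was 0.34. Racgap1 (chr15:99620496-99651656, minus strand), a subunit of the central spindle complex, had 9.61, 13.4, 8.53 and 10.3 CPM, with a log2 ratio of 0.44 at 48 h over a length of 3122 bp against 1030 bp at 0 h. At 72 h the log2 ratio of Racgap1 was -0.15 at the promoter, 0.39 over the merged regions and 0.18 over the gene body. Per kb, Racgap1 was lower at 48 h (4.28 CPM per kb) than at 0 h (9.33).

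Kif23 (chr9:61915905-61946774, minus strand), the central spindle kinesin that binds Racgap1, had 17.0, 18.7, 10.7 and 14.7 CPM and log2 ratios of 0.13, -0.63 and -0.20. Its 0 h sum came from peaks of 1220 and 723 bp, and at 72 and 96 h no peak at the second site reached into the window. Over the merged region Kif23 had 17.0, 18.7, 19.9 and 26.8 CPM, so the 72 h value turned to 0.22 and the 96 h value to 0.62, past 1.5-fold, and a window of 500 bp gave 0.11 at 72 h. Prc1, Anln and Kif20a, which bundle midzone microtubules, scaffold the contractile ring and recruit PLK1, had log2 ratios of -0.28, -0.06 and -0.51 at 72 h. Kif20a shares its peak with Brd8, whose start lies 12 bp away. In all, the promoter peaks of 7 members held the start of another coding gene in every library, also those of Aurka (Cstf1), Nusap1 (Oip5), Hmmr (Nudcd2) and Cdc25b (Spef1) beside Foxm1, Cdca8 and Kif20a, and the counts cannot be told apart between the genes.

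The chromosome structure genes Mki67 and Top2a, both widely used as marks of dividing cells, differed from each other. Mki67 (chr7:135689784-135716361, minus strand), which encodes Ki-67, a protein of the surface of mitotic chromosomes, had 16.1, 15.7, 23.3 and 32.3 CPM. Its log2 ratio was -0.03 (-0.19 to 0.12), 0.51 (0.34 to 0.72) and 0.96 (0.80 to 1.21), with peaks of 1740, 1849, 1983 and 1280 bp. Mki67 was at the 0 h level at 48 h within counting error and above it at 72 and 96 h. Top2a (chr11:98992943-99024189, minus strand), the topoisomerase that untangles sister chromatids, had 12.0, 7.65, 9.18 and 8.37 CPM. Its log2 ratio was -0.59 (-0.87 to -0.44), -0.35 (-0.68 to -0.10) and -0.47 (-0.92 to -0.15), so it was below 0 h in each later library. At its 5′ end alone the values were -0.39, -0.15 and -0.26, since a small internal peak with 1.75 CPM at 0 h had 0.08 CPM at 48 h and no counterpart at 72 or 96 h.

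Members with both CHR and CCAAT letters (22 genes) had a median log2 ratio of -0.004, -0.02 and 0.39 in the 3 comparisons, and those without both -0.12, -0.04 and 0.36. By CHR letters alone, the 25 members with a match were at -0.02, -0.06 and 0.21 and those without at -0.14, -0.01 and 0.63. By CCAAT alone, the 24 with a match were at -0.004, -0.02 and 0.42 and those without at -0.12, -0.04 and 0.26. With both and without both, the median levels at 0 h were 9.27 and 9.80 CPM per kb. These are descriptions over 32 genes, with no test.

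Restricting each member to the peaks within 1 kb of the 5′ end of the gene, as in the examples above, left 38 members, without Cdca8. Of these, 14 had promoter peaks at other starts too. The medians were -0.02, -0.02 and 0.36 at 48, 72 and 96 h, and among those of near-equal length -0.10 over 26 genes, -0.01 over 26 and 0.72 over 8.

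Counts over whole genes were tallied next. Peaks over the gene body plus 2 kb upstream were tested for 15500 genes, among them all 39 members. Median log2 ratios of the members were 0.01, -0.06 and 0.26 at 48, 72 and 96 h, against -0.03, -0.01 and 0.08 over all gene bodies. At 48 h, 2 members were at least 1.5-fold higher (background 13.3%) and 2 lower (6.92%). The counts were 3 higher (19.3%) and 7 lower (15.8%) at 72 h, and 10 higher (17.8%) and 5 lower (17.3%) at 96 h. Cenpf had the highest gene body value at 72 and 96 h (1.05 and 1.18), with 23.0, 27.7, 48.8 and 53.3 CPM. Cdc20, the highest at the promoter at 48 and 72 h, was among the lowest over its gene body at 72 and 96 h (-0.76 and -1.68), where its 0 h sum of 50.4 CPM covered 6659 bp and its 96 h sum of 15.0 CPM covered 775 bp. Against gene bodies of like 0 h level and length the members' median difference was 0.02, -0.03 and 0.06.

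In single nuclei the counts at these promoters were sparse. After each nucleus was thinned to 1000 counts, 50.9% (exact 95% binomial interval 49.4 to 52.5), 52.2% (50.6 to 53.7), 48.7% (47.2 to 50.2) and 55.2% (53.5 to 56.9) of nuclei had a count in a promoter peak of at least 1 member at 0, 48, 72 and 96 h. Without thinning the shares were 93.8%, 90.1%, 78.6% and 78.7%. The mean number of members with a count in a thinned nucleus was 0.725, 0.740, 0.666 and 0.811, and no thinned nucleus had more than 5 of 39 in any library. Nuclei with 3 or more members made up 3.85%, 4.06%, 3.15% and 4.93%. For single members the thinned share ran from 0.503% (Cdc20) to 4.25% (Mad2l1) of nuclei at 0 h and from 0.488% (Top2a) to 6.22% (Cdc20) at 48 h, where the long peak of Cdc20 is counted. At 96 h it ran from 0.496% (Ccnb2) to 5.46% (Mad2l1). These intervals cover counting error only.

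Other genes of the cell cycle were read in the same way. Of 52 other mitosis genes, 50 passed the filter, and their medians of -0.17, -0.03 and 0.36 at 48, 72 and 96 h stood beside -0.04, -0.06 and 0.36 for the 39 members and -0.15, -0.10 and 0.15 for all promoters. Numbers higher and lower by 1.5-fold were 1 and 2 at 48 h, 2 and 4 at 72 h and 14 and 2 at 96 h, beside the same backgrounds as above. At 48 h Ncapd2, a condensin subunit, was highest (46.9 to 145 CPM, log2 ratio 1.60, peaks of 5001 and 19032 bp), followed by Ckap2 (0.47), and Kifc1 (-0.77) and Ube2s (-0.62) were lowest. The 22 regulators of mitosis promoters, which are B-MYB, MuvB subunits, retinoblastoma family members, and E2F, DP and NF-Y factors, were at medians of -0.11, -0.06 and 0.23, with 1, 2 and 7 higher (all promoters 11.4%, 15.1% and 20.6%) and 2, 4 and 3 lower (8.90%, 18.6% and 16.4%) by 1.5-fold. Mybl2, which encodes B-MYB, was highest at 48 h with 14.1, 21.6, 22.9 and 23.9 CPM and log2 ratios of 0.59, 0.66 and 0.72, and E2f7, an E2F repressor, came next with 0.39, 0.88 and 1.2. Rbbp4 (-0.73) and Lin52 (-0.61) were lowest.

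DNA replication genes, which are used in S phase before mitosis, were at -0.13, -0.13 and 0.38 as the median of 30 genes, with 3, 2 and 5 of 30 higher and 1, 5 and 3 lower by 1.5-fold, beside the same shares of all promoters as for the regulators. Pcna, the sliding clamp of the replication fork, had 24.3 CPM at 0 h and 114.1 CPM at 48 h, a log2 ratio of 2.19 over peaks of 1762 and 13782 bp. Mcm6, a subunit of the replicative helicase, was at 1.24, over 3504 and 8857 bp. The lowest at 48 h were Cdc45 (-0.61) and Mcm4 (-0.50). In each of the 4 lists the highest value at 48 h belonged to a gene whose peak was longer at 48 h than at 0 h.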

How the data were processed

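The authors deposited, for each library, counts of transposase cut sites per peak and barcode, made with Cell Ranger ATAC (software version 1.1.0 in the file headers) on mm10 per the submitters' processing notes, with peaks called in each library. Both ends of a fragment are counted, so 87.3% to 88.6% of the values were even, and Poisson intervals were computed on fragments. From these, counts over barcodes with at least 1000 counts were summed in peaks within 1 kb of a GENCODE vM21 transcript start, or over the gene body plus 2 kb upstream, and divided by the library's counts in peaks (CPM). Genes with a mean of at least 5 CPM were tested, and a difference of 1.5-fold, with 1 CPM added, was called. The intervals of ratios are exact conditional binomial intervals (Clopper-Pearson, 95%) without the added 1 CPM, so a ratio can lie outside its own interval, as for Cdc20 at 48 h. They cover counting error only. No doublet caller was run. All members are named. Values in each library are given for the 3 highest and 3 lowest at each time and for Mki67, Top2a, Cdk1, Ccnb1, Foxm1, Plk1 and Aurkb, and of other lists the highest and lowest 2 at 48 h are named. The members and lists were chosen with earlier results of these data known. The merged regions and the closer look at 5′-end peaks were chosen after the data were seen. Motif letters were searched on both strands of RefSeq promoter windows (GRCm38.p6). Scripts ran in Python 3.11.15 with NumPy 2.4.6, pandas 2.3.3, SciPy 1.17.1 and matplotlib 3.10.9. The tally was tested on simulated counts over a fixed set of promoters. That test leaves out differences in called peaks between libraries, so it cannot check their effect. Alternatives changed the count minimum, scaling, window, pseudocount, filter and counting.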

Additional observations from a re-analysis of the deposited data

Results flagged for a closer look

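Barcodes under 1000 counts, which entered no comparison, also held counts in the promoter peaks of the 39 mitosis genes. Their summed level at 0, 48, 72 and 96 h was 769, 874, 851 and 1023.72 CPM. The exact 95% Poisson intervals ran from 648 to 907, from 768 to 992, from 764 to 946 and from 931 to 1123 CPM, in that order. The 96 h value was picked out because its interval lies above that of 0 h, and in nuclei the sums were 780.6 CPM at 0 h and 1011.5 CPM at 96 h. The difference has no replicate check.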

How the results depend on the processing

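No paired analysis was possible because each time point had 1 library. Of the values for the whole list, 130 moved little under the alternatives and 26 moved by more. A count moved little within 1.5-fold, and a log2 value within the margin of a single member's counting interval. At promoters the median margin was 0.15, 0.21 and 0.24 at 48, 72 and 96 h. It exceeds the 48 and 72 h medians and the differences from comparable promoters, so these could change sign and still be among the 130. Setting the median to 0 cannot move those differences. Reversals were counted among values past 1.5-fold only, so the changes of sign of the small 48 and 72 h medians under scaling are not among them. Of the values for single genes, 1139 moved little, 82 moved by more and 2 reversed. The cause of these moves was not tested. At 48 h, the number of members at least 1.5-fold lower at the promoter was 0 when scaled to regions with a peak in all libraries, 0 when the median of all promoters was set to 0, 1 when each nucleus counted once per peak (binarised, 5.16% of all) and 1 with 5′-end peaks only (9.24%). The number higher at 48 h was 0 of 24 among lengths within a ratio of 5 to 4 (1.90% of all such promoters), 1 when binarised (8.68%) and 1 over merged regions (9.36%), an alternative chosen after seeing the data. The 48 h median was 0.11 with the median of all promoters set to 0. Binarised, the medians of members and of all promoters were -0.15 and -0.13 at 48 h and -0.24 and -0.10 at 72 h, so that members lay below all promoters. At 72 h, the number lower was 2 with at least 3000 counts per barcode (19.2% of all), 3 without the 5% deepest nuclei (18.5%), 2 under either scaling, 1 of 25 among near-equal lengths (4.36% of all such promoters) and 8 when binarised (16.1% of all), and the number higher was 5 with the median set to 0 (17.7% of all), 1 among near-equal lengths (10.4%) and 1 when binarised (12.5%). At 96 h, the number higher was 7 under either scaling, 5 of 7 among near-equal lengths (68.2% of all such promoters) and 6 when binarised (17.7% of all), and the number lower was 5 with the median set to 0, 0 among near-equal lengths (0.069% of all such promoters) and 5 when binarised (13.6%). Among near-equal lengths the 96 h median was 0.67 over 7 promoters and 0.67 over 2 gene bodies, beside 0.79 and 0.92 for all of such length. Kif23 at 72 h reversed, from -0.63 to 0.11 with a window of 500 bp and 0.22 over the merged region. At 96 h a member rested on as few as 72 counts.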
